A study of Mus musculus with 4 samples.

Results

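Chemokines and chemokine receptors were followed here through all array probes whose gene name was Ccl, Cxcl, Ccr or Cxcr followed directly by a digit. These were 66 probes for 51 genes, out of 39429 probes for 30222 named genes on the array. The 51 genes were 33 ligands and 18 receptors, and 40 of them had 1 probe each while 11 had several, up to 4. Chemokines are small secreted proteins that attract and position leukocytes, and they act on G protein-coupled receptors of the CC and CXC classes. In the spinal cord after peripheral nerve injury they are known as signals between neurons, astrocytes and microglia, and several of them, such as Ccl2 and its receptor Ccr2, are well known in work on neuropathic pain. Glucocorticoids are known to restrain the transcription of many inflammatory chemokines.

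RNA was taken from lumbar cord slices (segments L4 and L5) of male mice of the outbred ICR stock, 5 to 6 weeks old. All mice had undergone partial sciatic nerve ligation (PSL) of the right hindlimb and were sampled on day 7 after that injury. The 4 conditions were sham-operated mice with the ligation (sham+PSL) and adrenalectomized mice with the ligation (ADX+PSL), each taken at zeitgeber time 10 (ZT10, late in the 12-h light phase, when glucocorticoid secretion was at its peak in sham mice) and at ZT22 (in the dark phase, after it had declined). Adrenalectomy removes the adrenal source of corticosterone together with the other adrenal hormones, and ADX mice drank saline. The number of mice behind each RNA and the side of the cord were not given in the sources used here, and no uninjured cord was among these conditions, so the injury was common to every value. Each condition was hybridised to 1 array, and the 4 arrays were on 1 slide. A comparison of 2 arrays therefore has no replicate check and no test, and so few arrays limit how precisely any value is known. Levels are the deposited intensities after quantile normalization, pairs of levels are given with ZT10 before ZT22, and a probe was "well above background" where the scanner software marked it so. The spot error of that software gives a log2 ratio of bright probes such as Ccl2 an SE of 0.20, and for Ccl8 in sham+PSL 0.45, and it leaves out differences between RNA samples.

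Markers of the tissue were present on every array: 8 of 8 neuronal, 6 of 6 astrocyte, 6 of 6 oligodendrocyte and 10 of 10 microglial genes of the lists used passed the background flag everywhere. Of 7 T cell markers, 3 (Cd3e, Cd4 and Lck) passed it on every array, and Cd3d, Cd3g, Cd2 and Cd8a passed it nowhere. Of 5 B cell markers, 2 (Cd79a and Cd79b) passed it on every array, and Ms4a1 and Pax5 nowhere. Some marker lists differed between the arrays. The summed level of 10 meningeal fibroblast genes (9 of them above background on every array) was 16618 and 15297 in sham+PSL at ZT10 and ZT22, against 5667 and 6240 in ADX+PSL, and 7 red blood cell genes summed to 18771 in sham+PSL ZT22 but to between 89814 and 135915 on the other arrays. These values are set beside the chemokine results that they move with. In whole tissue, fewer cells of a type and less RNA per cell cannot be told apart.

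Of the 66 probes, 34 were well above background on all 4 arrays, 13 on some and 19 on none, where levels lay between 3.41 and 14.6. By gene, taking the probe with the highest mean level, 25 were measured on all arrays, 11 on some and 15 on none. Of the 13, 9 (13.6% of all member probes) were above background on 1 array only, against 4.74% of all probes on the array. Among the CC ligands of the monocyte and T cell type 9 of 14 genes were measured on every array, among the neutrophil-attracting CXC ligands 1 of 5, among the CC receptors 3 of 11 and among the CXC receptors 3 of 7. Over all member probes the median log2 ratio was close to 0 in each comparison. It was -0.02 for ZT10 over ZT22 in sham+PSL, -0.06 for the same ratio in ADX+PSL, -0.07 for ADX+PSL over sham+PSL at ZT10 and 0.02 at ZT22, beside -0.01, -0.01, -0.01 and 0.02 over all probes. With the processed signals shifted by the 75th percentile of each array instead, the first of these became -0.22, beside -0.07 over all probes. The differences below belong to single genes and to a group of CC ligand genes on chromosome 11.

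Many of the monocyte-attracting CC ligand genes lie together on mouse chromosome 11. In the mm9 build the probes for Ccl2, Ccl7, Ccl11, Ccl12, Ccl8 and Ccl1 lay between positions 81850650 and 81990510, and those for Ccl5, Ccl9, Ccl6, Ccl3 and Ccl4 between 83339296 and 83478111. Promoter windows from RefSeq (build GRCm38.p6) were at hand for 35 of the 51 genes, 39 windows in all. The 250 bases before the start of 4 of these ligand genes are printed because their RNA levels are compared below, with motif letters found on either strand in capitals.
Ccl12 (chr11:82101595-82101844, plus strand): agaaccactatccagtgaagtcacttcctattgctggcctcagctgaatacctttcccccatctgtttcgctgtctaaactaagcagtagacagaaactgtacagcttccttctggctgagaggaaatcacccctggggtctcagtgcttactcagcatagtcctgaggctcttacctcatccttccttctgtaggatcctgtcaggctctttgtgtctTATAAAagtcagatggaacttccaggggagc
Ccl8 (chr11:82114935-82115184, plus strand): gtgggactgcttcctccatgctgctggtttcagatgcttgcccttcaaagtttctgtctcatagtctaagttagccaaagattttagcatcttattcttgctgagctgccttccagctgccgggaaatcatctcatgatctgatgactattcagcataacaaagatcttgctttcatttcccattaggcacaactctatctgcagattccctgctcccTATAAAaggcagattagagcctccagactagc
Ccl9 (chr11:83578637-83578886, minus strand): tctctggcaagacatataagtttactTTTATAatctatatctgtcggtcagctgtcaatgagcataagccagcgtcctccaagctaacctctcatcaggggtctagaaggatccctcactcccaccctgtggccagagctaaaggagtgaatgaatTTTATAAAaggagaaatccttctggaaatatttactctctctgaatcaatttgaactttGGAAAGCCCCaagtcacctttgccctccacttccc
Ccl6 (chr11:83593088-83593337, minus strand): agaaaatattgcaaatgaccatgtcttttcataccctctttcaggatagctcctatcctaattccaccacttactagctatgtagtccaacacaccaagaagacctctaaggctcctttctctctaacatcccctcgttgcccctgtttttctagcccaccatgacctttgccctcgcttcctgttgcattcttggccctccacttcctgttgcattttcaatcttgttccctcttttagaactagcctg
The motifs searched were TATAAA (the core of a TATA box), AGAACA (one arm of the palindrome to which the glucocorticoid receptor binds), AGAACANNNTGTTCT (the whole palindrome) and GGGNNTTTCC (a form of the NF-kappaB motif). Where motifs overlap, as the copies of TATAAA on both strands of Ccl9 do, the capitals run on. TATAAA began at position -31 in Ccl12 and at -32 in Ccl8, counted back from the RefSeq start, and 10 of the 39 member windows held it somewhere, against 12.4% of all 32851 windows. In Ccl9 it began at -92 on the gene's strand, and a copy of GGGNNTTTCC on the opposite strand began at -35. GGGNNTTTCC was in 6 of the 39 member windows (Ccl20, Ccl9, Ccr3, Cxcl1, Cxcl2 and Cxcl3) and in 1.41% of all windows. AGAACA was in 7 of the 39, against 16.1% of all windows, and the whole palindrome in 0 of the 39 and in 3 of all windows. None of these motifs was found in the Ccl6 window. A match describes letters in a window and not a bound site, and a window without a match says only that these letters are not in it.

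The first question was whether spinal chemokine RNA differed between the time of the glucocorticoid peak and the time after it, in mice with and without adrenal glands. The CC ligands of chromosome 11 that were above background on most arrays were mostly lower at ZT10 than at ZT22, in both operations. Ccl1 and Ccl11, each above background on 1 array only, are left out of that statement. Ccl11 ran the other way in sham+PSL, with 23.4 at ZT10 against a background reading of 3.65 at ZT22, at least 1.27-fold higher at ZT10. Ccl2, which attracts monocytes, had levels of 441 at ZT10 and 745 at ZT22 in sham+PSL, and of 264 at ZT10 and 563 at ZT22 in ADX+PSL. Both ZT10 values were below both ZT22 values, and the ZT22 level was 1.69-fold the ZT10 level in sham+PSL, and 2.14-fold it in ADX+PSL. The Ccl2 probe was printed 10 times on each array, and the SD among its spots was 0.04 to 0.07 on the log2 scale. On the ADX+PSL ZT22 array 3 of these spots carried an outlier flag.

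Ccl7, a monocyte attractant next to Ccl2, went with time from 415 (ZT10) to 660 (ZT22) in sham+PSL and from 221 to 776 in ADX+PSL. It was thus 1.59-fold higher at ZT22 in sham+PSL and 3.52-fold higher in ADX+PSL, and again both ZT10 values were the lower ones. Ccl8, a relative in the same group of genes, was not well above background in sham+PSL at ZT10, where its level read 13.2, against 34.3 at ZT22, and in ADX+PSL it had 15.8 at ZT10 against 65.6 at ZT22. In sham+PSL the level at ZT22 was at least 2.31-fold that at ZT10, and in ADX+PSL it was 4.14-fold. Ccl8 was the gene called in both operations under the limits used here, which asked for a ratio of at least 2 (or 0.5 or less), a Z-score of at least 2 (or -2 or less) among all probes, and a brighter array well above background.

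Ccl3 and Ccl4, the macrophage inflammatory proteins, also had their higher values at ZT22. Ccl3 had 40.8 at ZT10 and 77.5 at ZT22 in sham+PSL, and 24.7 and then 43.0 in ADX+PSL, ZT22 levels 1.90-fold and 1.74-fold those at ZT10. Ccl4 had 47.2 and 140 in sham+PSL, and 34.0 and 53.7 in ADX+PSL, ratios of 2.97 and 1.58, of which only that in sham+PSL passed the limits. Ccl12, a mouse ligand of Ccr2, had 302 and 657 in sham+PSL and 140 and 214 in ADX+PSL, 2.18-fold and 1.53-fold higher at ZT22. For Ccl12 the operation separated the arrays more than the time did, since both ADX+PSL values lay below both sham+PSL values.

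**Figure D1:**
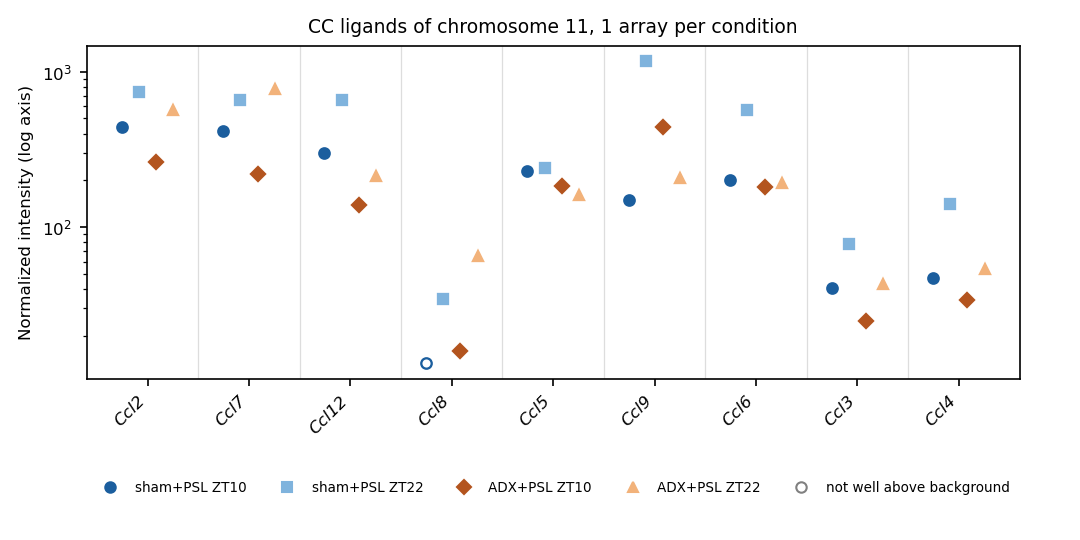
Normalized intensity (log axis) of 9 CC ligand genes of chromosome 11 on the 4 arrays, 1 marker per array with no replicate error, and open markers where the probe was not well above background. Ccl2, Ccl7, Ccl12, Ccl8, Ccl3 and Ccl4 have their ZT22 marker above their ZT10 marker in both operations, while Ccl9 runs from 149 to 1178 in sham+PSL and from 443 to 208 in ADX+PSL.

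The neighbours Ccl6 and Ccl9, rodent ligands of Ccr1, behaved differently between the operations. Ccl6 had 199 at ZT10 and 566 at ZT22 in sham+PSL, a 2.84-fold higher level at ZT22, but 181 and 193 in ADX+PSL. The value in sham+PSL at ZT22 thus stood alone, and the other 3 arrays lay between 181 and 199. Ccl9 had 149 at ZT10 and 1178 at ZT22 in sham+PSL, 7.92-fold higher at ZT22, and 443 and 208 in ADX+PSL, 2.13-fold higher at ZT10. Ccl5, an attractant of T cells, had levels of 230 and 238 in sham+PSL, against 185 and 161 in ADX+PSL, so it hardly differed with time.

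Over the 8 CC ligand probes of chromosome 11 that were well above background on all arrays, all 8 were lower at ZT10 in sham+PSL and 6 were lower at ZT10 in both operations. Of the 8, Ccl5 had a log2 ratio of only -0.05 in sham+PSL. The chromosome 11 ligands were not one of the role groups into which the members were sorted. Their counts come from the same arrays as the values above, so they describe the group and are not a test of it. Among all probes measured on every array 48.0% were lower at ZT10 in sham+PSL, and 24.4% in both operations. Among 75 other probes within 2 Mb of these ligand genes, 40 were lower in sham+PSL and 21 in both operations. Over the 8 probes the median time ratio, ZT10 over ZT22 on the log2 scale, was -1.02 with the adrenal glands and -0.64 without them, against -0.01 and 0.01 for the 75 neighbouring probes. The same 6 of 8 count came from each of the other 4 scalings of the scanner signals, an alternative chosen after seeing the data. None of these probes shared a run of 20 bases with a probe of another gene. The 10 microglial markers were also lower at ZT10 on the median, with log2 ratios of -0.43 (sham+PSL) and -0.28 (ADX+PSL). The 9 monocyte and neutrophil markers on the array had medians of 0.84 and -0.49. Of these, 7 were above background on every array, with sham+PSL ratios from -0.32 (Mpo) to 0.97 (S100a8). Ngp and Retnlg, at 0.94 and 1.33 in sham+PSL, were above background on none, so that median rests partly on background readings. In sham+PSL the ZT22 array was also the one with little red blood cell RNA. The part of these cell populations in the chemokine values was not tested.

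Over all members, 14 of the 47 probes measured on at least 1 array (29.8%) were lower at ZT10 in both operations, near the 23.7% of all such probes, and 11 of the 47 (23.4%) were higher at ZT10 in both, near the 27.5% of all such probes. Those higher at ZT10 included all 3 probes of Ccl19, the ligand of Ccr7 that guides T cells and dendritic cells. The brightest Ccl19 probe had 1872 and 1437 in sham+PSL and 1756 and 1553 in ADX+PSL, ratios of ZT10 to ZT22 of 1.30 and 1.13. Cxcr7, a scavenger receptor of Cxcl12 that RefSeq names Ackr3, had 552 and 357 in sham+PSL and 393 and 296 in ADX+PSL, ratios of 1.54 and 1.33.

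**Figure D2:**
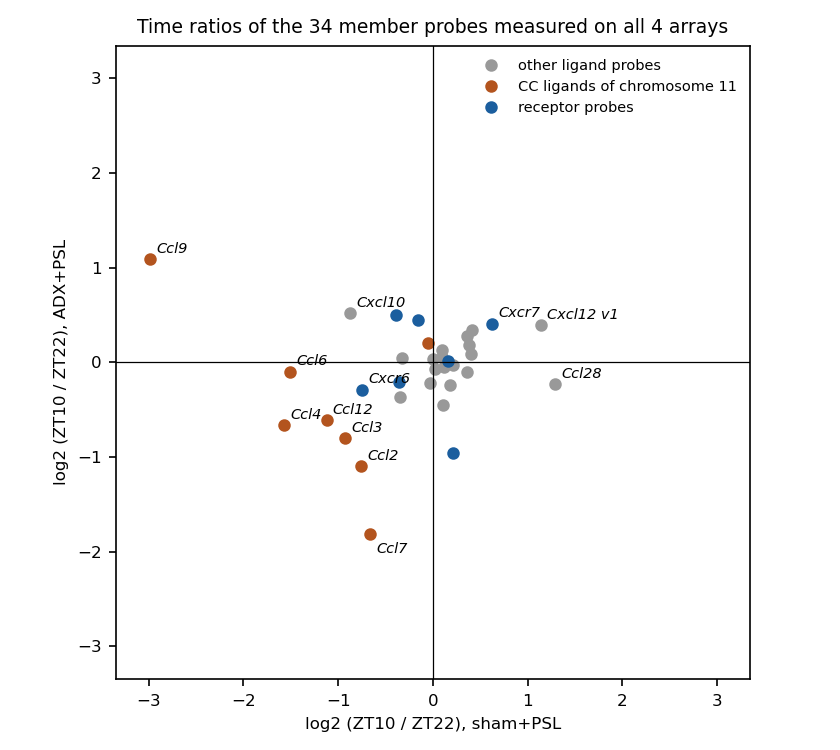
Time ratios (ZT10 over ZT22, log2 scale) of sham+PSL (x axis) against those of ADX+PSL (y axis) for the 34 member probes well above background on all 4 arrays, each point 1 probe with no replicate error. Ccl2, Ccl3, Ccl4, Ccl6, Ccl7 and Ccl12 lie in the lower left, Ccl9 lies in the upper left, and v1 marks the Cxcl12 probe of transcript variant 1.

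By the limits on ratio and Z-score, 7 of 44 member probes (15.9%) were called lower at ZT10 in sham+PSL, against 1.54% of all probes, and 2 of 44 (4.55%) higher, against 1.2%. The lower calls were Ccl4, Ccl6, Ccl8, Ccl9, Ccl20, Ccr6 and Cxcr5, and the higher calls Ccl28 and Cxcl13. In ADX+PSL 2 of 41 (4.88%) were called lower at ZT10, Ccl7 and Ccl8, against 1.57% of all probes, and 0 of 41 higher, against 0.777%. Of the 9 calls in sham+PSL, 5 (Ccl8, Ccl20, Ccr6, Cxcr5 and Cxcl13) ended when both arrays had to be above background. With the Z-score taken within 20 bins of level, 2 (Ccl8 and Ccl28) ended and 2 (Ccl12 and a Cxcl12 probe) were added. With normexp background correction those of Ccl4, Ccl8, Ccl28, Cxcr5 and Cxcl13 ended, as did that of Ccl8 in ADX+PSL.

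The next question was which levels differed with the adrenal glands removed. Ccl12 and Cxcl16 were lower in ADX+PSL at both times. The Ccl12 level in sham+PSL was 2.16-fold that in ADX+PSL at ZT10 and 3.07-fold at ZT22, and the second ratio passed the limits. Cxcl16, a membrane-bound chemokine that binds Cxcr6, had 133 and 169 in sham+PSL and 69.3 and 89.2 in ADX+PSL, 1.91-fold and 1.90-fold higher in sham+PSL. Ccl3 was 1.65-fold and 1.81-fold higher in sham+PSL at ZT10 and ZT22, although its ADX+PSL ZT22 value of 43.0 lay above its sham+PSL ZT10 value of 40.8. Ccl24, an eotaxin, had 52.5 and 28.4 in sham+PSL and 23.9 and 22.5 in ADX+PSL, the last not well above background. The Ccl5 values given above were likewise both lower in ADX+PSL, by 1.24-fold and 1.48-fold.

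At ZT22 alone, several ligands were highest in sham+PSL. The sham+PSL level was 2.61-fold that in ADX+PSL for Ccl4, 2.93-fold for Ccl6 and 5.68-fold for Ccl9. At ZT10 the Ccl9 difference ran the other way, with ADX+PSL 2.98-fold higher. These operation ratios use the same 4 arrays as the time ratios above, so they are not further evidence of the same pattern. In all, 6 of 40 member probes (15%) were called lower in ADX+PSL at ZT22, against 1.25% of all probes, and 0 of 40 higher, against 1.09%. The 6 were Ccl4, Ccl6, Ccl9, Ccl12, Ccl20 and Cxcr5. On the same pair of arrays 5 of 7 red blood cell genes were called higher in ADX+PSL, and their part in these values was not tested. At ZT10, 3 of 45 (6.67%) were called lower in ADX+PSL, against 1.84% of all probes, namely a Cxcl9 probe, Cxcl13 and a Cxcl12 probe, and 2 of 45 (4.44%) higher, Ccl9 and Ccr6, against 1.16%. Requiring both arrays above background ended the calls of Ccl20 and Cxcr5 at ZT22 and of Cxcl9, Cxcl13 and Ccr6 at ZT10, and normexp correction ended those of Ccl4, Ccl20 and Cxcr5 at ZT22 and of Cxcl9 and Cxcl13 at ZT10.

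**Figure D3:**
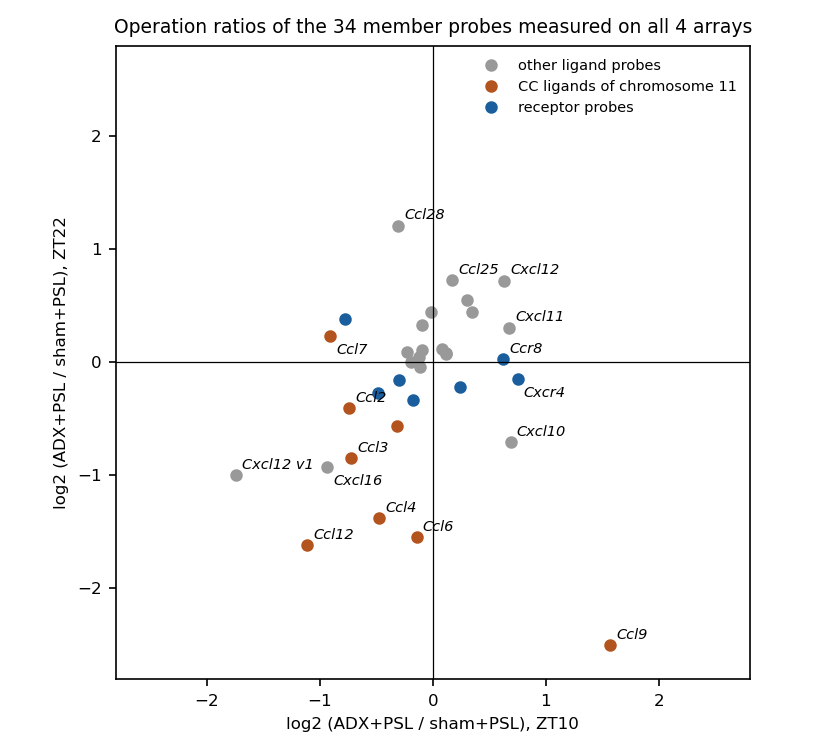
The log2 ratio of ADX+PSL to sham+PSL at ZT10 (x axis) against that at ZT22 (y axis) for the 34 member probes well above background on all 4 arrays, each point 1 probe with no replicate error. Ccl12, Cxcl16 and the variant 1 probe of Cxcl12 (v1) lie low on both axes, the other Cxcl12 probe lies high on both, and Ccl9 lies at the lower right.

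Counting probes whose 2 ADX+PSL values both lay under both sham+PSL values gave 8 of 47 member probes (17%), near the 16.4% of all probes, and both above gave 9 of 47 (19.1%), beside 19% of all probes. The separation of operations was about as frequent among chemokine genes as on the array. Those higher in ADX+PSL were probes of Ccl25, Ccl27a, Ccr8, Ccr9, Cxcl11, Cxcl12 and Cxcl5. Ccr9 and Cxcl12 each also had another probe that was lower, and neither Ccr9 probe was above background on every array. Those lower in ADX+PSL were probes of Ccl12, Ccl24, Ccl5, Ccl6, Ccr10, Ccr9, Cxcl12 and Cxcl16. Beside them stand the lower meningeal fibroblast markers in ADX+PSL given above, of which 8 of 10 were called lower at ZT10 and 7 of 10 at ZT22, and the perivascular macrophage markers (5 measured, 3 on every array, Cd163 on none), which summed to 694 and 412 in sham+PSL and to 211 and 262 in ADX+PSL. Their part in the chemokine values was not tested.

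Cxcl12, which holds and guides cells through Cxcr4 and Cxcr7, had 2 probes that ran in opposite directions between operations. They lie 6141 bases apart on chromosome 6 (mm9) and are annotated to different transcript variants, so 30 bases of each are printed, in lower case with nothing marked.
Cxcl12 variant 3 (bases 16 to 45 of the probe at chr6:117131227-117131286, plus strand): cctatatgcagcgtgtgctttcttattctt
Cxcl12 variant 1 (bases 16 to 45 of the probe at chr6:117125026-117125085, plus strand): ccgtatgtgggaatttatttacctgaaata
The variant 3 probe had 2758 at ZT10 and 2145 at ZT22 in sham+PSL and 4281 and 3540 in ADX+PSL, so ADX+PSL was 1.55-fold higher at ZT10 and 1.65-fold higher at ZT22. The variant 1 probe had 247 and 112 in sham+PSL and 73.7 and 56.0 in ADX+PSL, so sham+PSL was 3.35-fold higher at ZT10 and 2.0-fold higher at ZT22. Neither probe's operations overlapped. With time the probes ran the same way, both higher at ZT10 in both operations, by 1.29-fold and 1.21-fold for variant 3 and by 2.21-fold and 1.32-fold for variant 1. Neither probe shared a run of 20 bases with a probe of another gene.

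Cxcl11, an interferon-induced ligand of Cxcr3, also had 2 probes, which are 13 bases apart on chromosome 5 (mm9) and are described apart. The capitals mark the run of 20 bases of the brighter probe found in the largest number of probes of other genes.
Cxcl11 probe 1 (bases 10 to 39 of the probe at chr5:92788567-92788626, minus strand): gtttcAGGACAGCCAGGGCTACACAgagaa
Cxcl11 probe 2 (bases 16 to 45 of the probe at chr5:92788640-92788699, minus strand): cagcacttgaaaggcagaggcaggaggatc
Probe 1 read 118371 on both sham+PSL arrays and 128419 and 124934 in ADX+PSL, and only 42 of all 39429 probes had a higher mean level. It shared a run of 20 bases with probes of 5 other genes, the marked run with 4 of them, and those 5 probes were also bright, with mean levels between 62435 and 220168. Runs of 20 bases from it were found on either strand of 22 of the 32851 promoter windows. Its level is given here but is not read as that of Cxcl11 RNA. Probe 2 shared no such run. It had 2192 and 2738 in sham+PSL and 3502 and 3389 in ADX+PSL, so ADX+PSL was 1.60-fold higher at ZT10 and 1.24-fold higher at ZT22. The search finds identical runs of 20 bases only and misses similar sequences. It therefore cannot show that probe 2 reads Cxcl11 RNA alone, which was not tested. Of all 66 member probes, 2 shared a run with a probe of another gene, the other being the dimmest of 3 Ccl27a probes.

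Of the other interferon-induced ligands, Cxcl10, which attracts activated T cells through Cxcr3, had 131 and 240 at ZT10 and ZT22 in sham+PSL and 211 and 147 in ADX+PSL. It was 1.83-fold higher at ZT22 in sham+PSL and 1.43-fold higher at ZT10 in ADX+PSL, and neither ratio passed the limits. Both Cxcl9 probes were above background only in sham+PSL at ZT10, at 25.5 and 26.2, and the second was at least 2.04-fold higher there than in ADX+PSL, a call that was lost under 3 of the other 4 scalings.

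Some ligands were measured on every array and stayed, in the brightest probe of each, within 1.5-fold over the 4 conditions. Cxcl14, known from many resting tissues, had 7154 and 5583 in sham+PSL and 7074 and 7616 in ADX+PSL. Ccl27a, a ligand of Ccr10, had 4529 and 4248 in sham+PSL and 4908 and 4483 in ADX+PSL, with all 4 arrays within a narrow range. Ccl17, a ligand of Ccr4, had 524, 534, 458 and 534 on the sham+PSL ZT10, sham+PSL ZT22, ADX+PSL ZT10 and ADX+PSL ZT22 arrays. Ccl25, the ligand of Ccr9, had 734 and 724 in sham+PSL and 934 and 984 in ADX+PSL, 1.27-fold and 1.36-fold higher after adrenalectomy. Of its other 3 probes, 1 was also higher in ADX+PSL at both times, with a wider range from 82.7 to 137, 1 was not separated by operation and 1 was at background throughout.

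Ccl28, a mucosal chemokine, had 47.7 and 19.5 in sham+PSL and 38.5 and 45.1 in ADX+PSL, so its sham+PSL ZT22 value was the low one and the other 3 arrays lay together. Among the neutrophil-attracting ligands Cxcl5 had 76.2 and 65.6 in sham+PSL and 94.2 and 96.1 in ADX+PSL, and Cxcl1, Cxcl2 and Cxcl3 were not well above background on any array. Nor was their receptor Cxcr2.

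**Figure D4:**
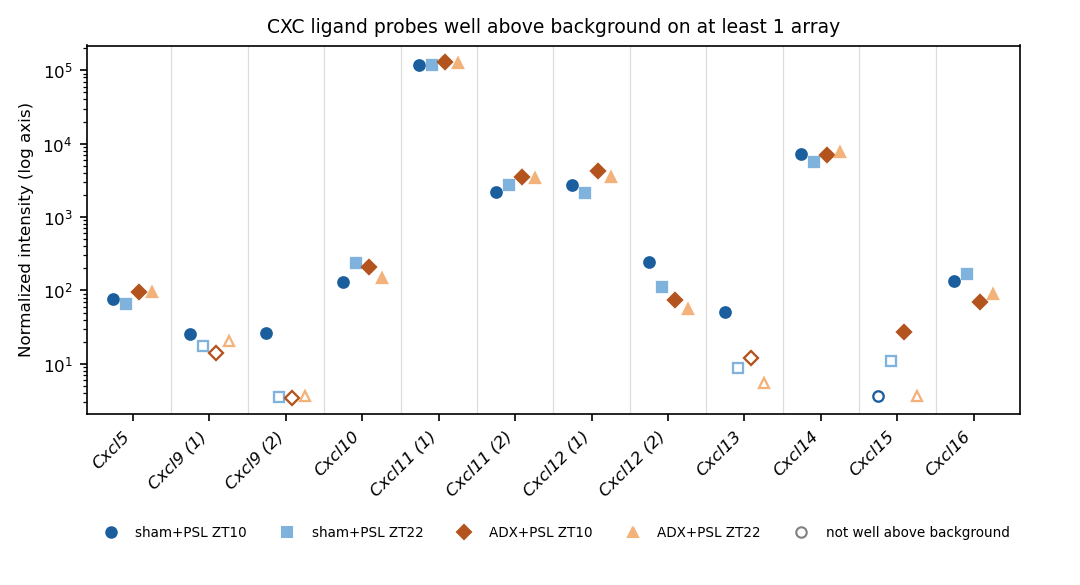
Normalized intensity (log axis) of the CXC ligand probes that were above background on some or all arrays, with 1 marker per array, no replicate error, and open markers where the probe was not well above background. The numbers in brackets tell 2 probes of a gene apart, the brighter first, and the Cxcl12 pair shows ADX+PSL above sham+PSL in probe 1 and below it in probe 2.

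Several ligands and a receptor were seen on 1 array only. Ccl20, the ligand of Ccr6, read 88.0 in sham+PSL at ZT22 and between 3.49 and 3.61 elsewhere, at least 5.92-fold higher than in sham+PSL at ZT10 and at least 3.97-fold higher than in ADX+PSL at ZT22. Cxcr5, the B cell follicle receptor, read 75.5 in sham+PSL at ZT22 and between 3.71 and 8.21 elsewhere, at least 5.08-fold and 3.40-fold higher in the same pair of comparisons. Its ligand Cxcl13 was above background on another array, that of sham+PSL at ZT10, with 50.1 there and between 5.44 and 11.9 elsewhere, at least 2.72-fold higher than at ZT22 and at least 3.91-fold higher than in ADX+PSL at ZT10. Ccl11, an eotaxin, was likewise measured only in sham+PSL at ZT10, at 23.4, and Cxcl15 only in ADX+PSL at ZT10, at 26.7. The perivascular macrophage markers also summed highest in sham+PSL at ZT10, and their part in the Cxcl13, Cxcl9 and Ccl11 readings was not tested. With 1 array per condition such a value cannot be told apart from a difference between the RNA preparations.

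Ccr6, the receptor of Ccl20 on subsets of lymphocytes and dendritic cells, gave the largest ratio of any member in these 4 comparisons. It read 5.23 in sham+PSL at ZT10, which was not well above background, but 654 at ZT22, and the ADX+PSL readings were 524 (ZT10) and 1021 (ZT22). The low reading was that of 1 array. Against it the sham+PSL ZT22 level was at least 44-fold higher and the ADX+PSL ZT10 level at least 35.2-fold higher. Within ADX+PSL, ZT22 was 1.95-fold higher than ZT10. The gene had 1 probe, so no other probe bears on the low reading.

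Of the receptors of the chromosome 11 ligands, Ccr2, which binds Ccl2, Ccl7 and Ccl12, was at background throughout, with levels of 8.53 and 14.0 in sham+PSL and 3.98 and 6.38 in ADX+PSL. Ccr1 and Ccr3 were at background as well. Ccr7, the receptor of Ccl19, Ccr4, the receptor of Ccl17, and Cxcr3, the receptor of Cxcl10, were on no array above background, while these ligands were on all.

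For Cxcl12 and Cxcl16 both ligand and receptor were measured on every array. Cxcr4 had 47.4 and 62.2 in sham+PSL and 79.8 and 56.3 in ADX+PSL, at most 1.68-fold apart between operations at the same time. Cxcr6 had 46.6 and 78.2 in sham+PSL and 55.1 and 67.3 in ADX+PSL, 1.68-fold and 1.22-fold higher at ZT22. Ccr10 had 76.7, 68.7, 62.2 and 61.5, and Ccr8 25.7, 28.6, 39.6 and 29.2, in the order sham+PSL ZT10, sham+PSL ZT22, ADX+PSL ZT10 and ADX+PSL ZT22.

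**Figure D5:**
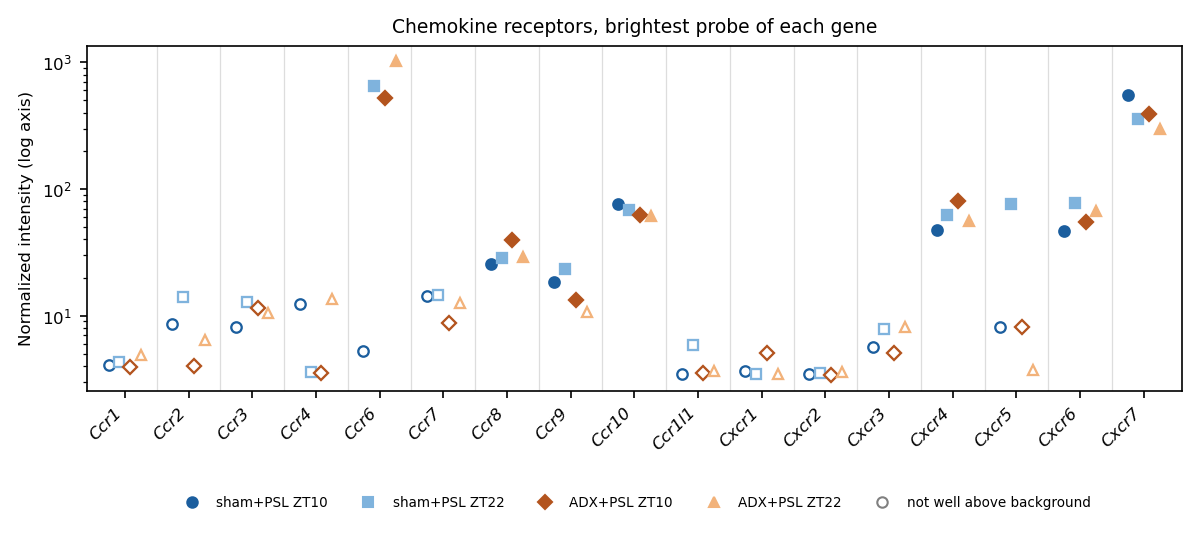
Normalized intensity (log axis) of chemokine receptor genes, the brightest probe of each, with 1 marker per array, no replicate error, and open markers where the probe was not well above background. Ccr6 shows 1 open marker at 5.23 under 3 filled ones between 524 and 1021, and Cxcr5 is filled in sham+PSL ZT22 only.

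No comparison of a single pair of arrays could be tested. Operation and time were tested over the 4 arrays in an additive limma fit with both as factors, which has 1 residual degree of freedom and treats any operation-dependent part of the time effect as error. It called 0 of 39 member probes at an adjusted p (Benjamini-Hochberg) under 0.05 for operation, where it called 0.0149% of all probes, and 0 of 39 for time, where it called 0% of all probes. The lowest adjusted p among members was 0.33 for operation, in Ccl12, and 0.47 for time, in Ccl8. At an unadjusted p under 0.05 it listed 14 of 39 member probes (35.9%) for operation, against 8.09% of all probes, and 11 of 39 (28.2%) for time, against 6.1%. The operation difference of Ccl12 was -1.37 (SE 0.18) and that of Cxcl16 -0.93 (SE 0.12) on the log2 scale, ADX+PSL minus sham+PSL. The time difference of Ccl8 was -1.71 (SE 0.21) and that of Ccl2 -0.93 (SE 0.15), ZT10 minus ZT22. Ccl9, whose time ratios ran in opposite directions, had a time difference of -0.95 with an SE of 1.01.

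The wider chemokine system outside the name rule was followed in 36 listed genes on the array, of which 5 (Xcl1, Xcr1, Ccrl1, Cmklr1 and Rgs1) were above background on no array. In sham+PSL 3 of the 31 genes above background on either array (9.68%) were called lower at ZT10, against 1.54% of all probes, and 0 higher, against 1.2%. In ADX+PSL 0 of 30 were called lower, against 1.57% of all probes, and 0 higher, against 0.777%. At ZT10 ADX+PSL was lower for 2 of 31 (6.45%), against 1.84% of all probes, and higher for 1 (3.23%), against 1.16%. At ZT22 it was lower for 1 of 30 (3.33%), against 1.25% of all probes, and higher for 0, against 1.09%. Dpp4, a protease that trims chemokines, Dock2 and Pik3cg, which carry receptor signals in leukocytes, were those lower at ZT10 in sham+PSL, and Pik3cg was the one higher and Dpp4 the one lower in ADX+PSL, at ZT10 and ZT22 respectively. Dpp4 was at background in sham+PSL at ZT10 and had 110 at ZT22, and it had 15.5 and 33.0 in ADX+PSL. Dock2 had 40.2 and 138 in sham+PSL and 34.8 and 61.6 in ADX+PSL, and Pik3cg had 46.7 and 171 in sham+PSL and 110 and 106.6 in ADX+PSL. Pf4, a platelet and macrophage chemokine, and Cd74, a receptor component of Mif, were those lower in ADX+PSL at ZT10. Cx3cl1, the neuronal chemokine read by microglia, had between 13081 and 16012 on the 4 arrays, and its receptor Cx3cr1 had 5633 and 8244 in sham+PSL and 5534 and 5560 in ADX+PSL, highest in sham+PSL at ZT22.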

How the data were processed

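Each of the 4 samples was labelled with 1 dye (Cy3) and hybridised to an Agilent whole mouse genome array read with Agilent Feature Extraction, version 9.5.1.1 per the labels and 10.7.1.1 per the file headers, with probe positions in the mm9 build. The authors deposited 1 table of linear intensities, made by quantile normalization across arrays and with 1 value per probe. This table gave all levels. Background flags and spot errors came from the deposited scanner intensities, and control spots were left out. The quantile step gives all arrays the same distribution, so a shift of most genes at once would not show. Columns of samples not used numbered 0.

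The members and the gene lists were chosen with earlier results of these data known. Genes named with their values were those called in any comparison, the 10 with the highest mean level, and ligands and receptors best known in nerve injury pain. Others were added where a receptor, a second probe or the wider pathway was described, after their values were seen. Ccl21a was not analysed here, and 1 member that enters the counts is not reported here by name. A call needed a ratio of at least 2 or at most 0.5 and a Z-score of at least 2 or at most -2 (the log2 ratio against its SD over all probes), following the limits in the study's methods, which do not define Z. The Z limit alone corresponded to ratios of 2.18 to 2.32. The brighter array had to be well above background. A dim level was taken as the higher of its own and the lowest level well above background on that array (12.8 to 22.2), which gives the folds written as "at least". The percentages of all probes given beside calls are over probes above background on either array. Those beside counts of separation by operation or of direction with time are over probes above background on at least 1 array or, where stated, on every array. Those beside fits are over the probes fitted, and that for readings on 1 array only is over all probes. Fits used limma 3.58.1 in R 4.3.3 on log2 levels of 26777 probes whose mean level reached the background limit, with Benjamini-Hochberg adjustment. Calls and fits were run on simulated data as a check of the code. The simulated noise was the same for every probe, and the probes raised in the check of calls were not dim. That check therefore does not bear on how reliable the calls of dim members are. Of the 66 member probes, 59 matched a RefSeq transcript and 58 kept their symbol. The alternatives were other scalings of the scanner signals, normexp background correction, other limits and other background filters.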

Additional observations from a re-analysis of the deposited data

Results flagged for a closer look

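Ccl9 was set apart because its probe, measured on every array, ran at least 2-fold one way with time in sham+PSL and at least 2-fold the other way in ADX+PSL. On the log2 scale its ZT10 level minus its ZT22 level was -2.99 with the adrenal glands and 1.09 without them, a difference of -4.08. With 1 array per condition this difference was not tested.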

How the results depend on the processing

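No paired analysis was possible because each condition has 1 array, and for the same reason no array could be left out, since the additive fit would keep no residual degree of freedom. No count of probes separated by operation moved by over 1.5 times under any alternative. The median over the members of ZT10 over ZT22 in sham+PSL was -0.02, but -0.22 with the 75th percentile shift and 0.01 with normexp. That of ADX+PSL over sham+PSL at ZT22 was 0.02, and 0.08 and -0.02 under the same settings. Without scaling between arrays the median of all probes itself moved to -0.13 for time in ADX+PSL and to 0.19 for operation at ZT22. No called ratio of a named gene changed direction, and 0 members passed the adjusted threshold in every fit tried, with a lowest adjusted p of 0.065 for operation and 0.19 for time. Of 524 recomputed log2 ratios of named genes, 479 stayed within the spot error and 45 moved beyond it. With normexp 34 moved and 90 stayed, and with the mean over all probes of a gene 11 moved and 17 stayed. Under each of the other scalings, which start from the same processed signals, all 124 stayed. The spot error of probes at background is wide (2.03 for time in ADX+PSL for Ccl20), so their ratios could hardly move beyond it. Counts of called members depended on the limits, and an equal count could hold different genes: with the Z-score within 20 bins of level, time in sham+PSL kept 9 calls, of which 7 were shared. For time in sham+PSL (9 calls) the count was 4 with normexp correction, 18 at a ratio of 1.5 with no Z-score, 4 with both arrays above background and 14 with no background filter. For time in ADX+PSL (2 calls) it was 1, 9 and 7 with normexp, the ratio of 1.5 and no filter, and 4 with either a ratio of 2 and no Z-score or a Z-score within 20 bins of level. For operation at ZT10 (5 calls) it was 3, 20, 2 and 10 with normexp, the ratio of 1.5, both arrays above background and no filter. For operation at ZT22 (6 calls) it was 3 with normexp and 15 at the ratio of 1.5. Normexp also changed the share of higher calls among all probes called, from 33.1% to 45.5% for time in ADX+PSL and from 46.7% to 36.0% for operation at ZT22. The cause was not tested. Dim probes limit what can be read: 19 member probes were at background on every array.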
